A study of Mus musculus with 10 samples.

Results

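The expression of 10 macrophage genes was examined in whole hearts of training and sedentary mice. Cd68, Adgre1, Csf1r, C1qa and Lyz2 mark macrophages in general, Lyve1, Timd4 and Mrc1 mark resident macrophages, Ccr2 marks cells recruited from blood monocytes, and Cx3cr1 is used by both kinds. These 10 genes were chosen by name out of 56748 genes in the count tables, and all 10 were among the 15454 genes with enough counts to be tested. The study compared 5 training mice with 5 sedentary mice of the same age, all wild-type male C57BL/6 bought at 8 weeks of age. The training mice had run on a treadmill for 8 weeks under force, 120 min per session at 15 m/min on 5 days per week. The study reported PET scans of each animal, training or sedentary, under isoflurane and after injection of a glucose tracer. It does not state this separately for the sequenced mice. Each heart, with both atria and both ventricles, gave 1 directional poly-A library, and all 10 libraries were read in 1 pool as single reads of 100 bases.

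Macrophages are the main immune cells of the healthy heart. Resident macrophages, seeded before birth and renewed locally, carry Lyve1, Timd4 and Mrc1, take up debris and dying cells and lie close to vessels and cardiomyocytes. Monocytes enter from the blood by means of the chemokine receptor CCR2, and the number of such cells is known to grow after injury. In RNA from a whole heart, fewer cells of a type and less RNA per cell cannot be told apart.

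Counts on genes came to between 29461697 and 35945417 reads in training hearts and between 35196993 and 39431030 in sedentary hearts. Levels are given as CPM, the counts scaled to the library size after TMM correction for library composition, and errors are the SD between 5 hearts. The cardiomyocyte marker Myh6 was at 27236 ± 553 CPM in training and 29353 ± 1214 CPM in sedentary hearts, a gene of heart muscle. The summed CPM of 6 atrial markers ranged from 5053 to 7617 in training hearts and from 2789 to 6837 in sedentary hearts, so that the level of atrial RNA differed between the libraries.

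None of the 10 macrophage genes differed between training and sedentary hearts at a false discovery rate (FDR) below 0.1 in edgeR's quasi-likelihood F test, with p-values adjusted after Benjamini and Hochberg over all genes. For comparison, 7.01% of all genes tested passed that threshold (1084 of 15454, with 2.75% higher and 4.26% lower in training hearts), and 20% had an unadjusted p below 0.05, against 0 of the 10. Adgre1, Timd4, Csf1r and Ccr2 had values above 0 and the other 6 genes values below 0, with a median log2 fold change of −0.02 against 0.00026 over all genes tested. DESeq2 also called 0 of the 10, and 9.53% of all genes. In each of the 10 genes the CPM values of the 2 groups overlapped, whereas 5.06% of all genes showed no overlap. The intervals differed in width from gene to gene. For Csf1r, the 95% interval of the fold ran from 0.919 to 1.14, and for Cx3cr1 from 0.521 to 1.16.

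**Figure D1:**
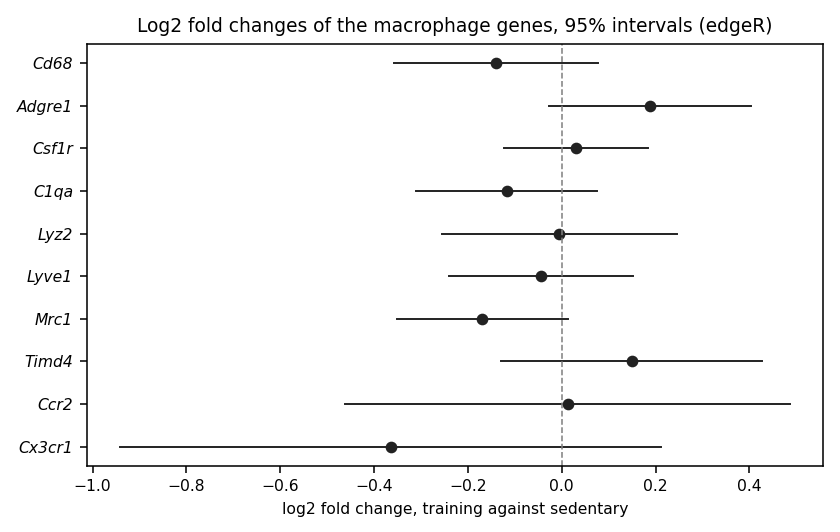
Log2 fold change in training over sedentary hearts for the 10 macrophage genes (points) with its 95% interval (lines) from edgeR's quasi-likelihood fit, 5 hearts per group. All 10 intervals include 0, and the widest are those of Cx3cr1 (−0.94 to 0.21) and Ccr2 (−0.46 to 0.49).

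Cd68 (ENSMUSG00000018774, chromosome 11 of GRCm39, 69555037 to 69557067), which encodes a glycoprotein of macrophage lysosomes, was at 9.06, 12.2, 11.1, 9.74 and 9.09 CPM in training hearts 1 to 5. In sedentary hearts 1 to 5 it was at 11.3, 9.93, 12.9, 9.84 and 12.4 CPM. Training hearts 1, 4 and 5 lay below all sedentary hearts, while training heart 2 lay among the higher sedentary values. Its log2 fold change was −0.14 (SE 0.10; edgeR, Benjamini-Hochberg adjusted p = 0.478).

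Adgre1 (ENSMUSG00000004730, chromosome 17, 57665573 to 57790527), the gene of the F4/80 antigen, was at 13.5, 17.0, 18.2, 13.8 and 16.5 CPM in the training hearts. The sedentary hearts had 16.0, 13.7, 15.2, 12.8 and 11.6 CPM. Training hearts 2, 3 and 5 exceeded every sedentary heart, and training hearts 1 and 4 did not. With 0.19 on the log2 scale, Adgre1 had the largest value above 0 among the 10 genes and still missed the threshold (SE 0.10; edgeR, Benjamini-Hochberg adjusted p = 0.320).

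Csf1r (ENSMUSG00000024621, chromosome 18, 61229714 to 61266535), the receptor through which CSF1 and IL-34 keep macrophages alive, was at 51.0, 60.3, 68.6, 59.6 and 59.9 CPM in training hearts. The sedentary values were 63.4, 53.1, 60.4, 54.8 and 61.4 CPM. Training heart 1 was the lowest and training heart 3 the highest of all 10 hearts, with the sedentary values between them. The log2 change was 0.03 (SE 0.071; edgeR, Benjamini-Hochberg adjusted p = 0.856), and Csf1r had the narrowest interval of the 10 genes. It overlaps Hmgxb3 on the opposite strand, whose reads are separate in these stranded counts.

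C1qa (ENSMUSG00000036887, chromosome 4, 136623223 to 136626161) encodes a chain of complement C1q, which macrophages make in large amounts. It was at 41.6, 50.1, 52.2, 43.5 and 40.5 CPM in training hearts and 55.7, 44.4, 56.8, 46.0 and 44.4 CPM in sedentary hearts. Sedentary hearts 1 and 3 stood above the other 8. On the log2 scale, training hearts differed by −0.12 (SE 0.090; edgeR, Benjamini-Hochberg adjusted p = 0.510).

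Lyz2 (ENSMUSG00000069516, chromosome 10, 117111557 to 117118346), the lysozyme gene of macrophages and neutrophils, had 138, 171, 163, 150.2 and 131 CPM in training hearts. Sedentary hearts had 195, 139, 171, 126 and 124 CPM. The sedentary hearts spread more widely (SD 30.8 CPM) than the training hearts (SD 16.5 CPM) and enclosed all of them. The log2 change was −0.005 with a 95% interval from −0.26 to 0.25 (SE 0.12; edgeR, Benjamini-Hochberg adjusted p = 0.988).

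Lyz2 has a neighbour, Lyz1, that encodes nearly the same protein and is best known from the gut, so it was asked whether their reads could be mixed. Of the 444 coding bases, 22 differ, and 14 of these lie in the 136 bases of the first coding exon. These exons are shown because they hold most of the differences, read from the GRCm39 genome with the GENCODE annotation on the minus strand (chr10:117118012-117118147 for Lyz2 and chr10:117128608-117128743 for Lyz1), with the differing bases in capitals.
Lyz2: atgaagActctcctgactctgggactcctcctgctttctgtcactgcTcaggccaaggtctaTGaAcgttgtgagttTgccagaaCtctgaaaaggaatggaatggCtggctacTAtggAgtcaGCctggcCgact
Lyz1: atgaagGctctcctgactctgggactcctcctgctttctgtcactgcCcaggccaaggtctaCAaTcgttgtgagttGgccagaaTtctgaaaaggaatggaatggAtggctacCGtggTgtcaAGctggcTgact
Of all windows of 100 bases in the Lyz2 transcripts, 0.664% (24 of 3615) occurred also in Lyz1, and the uniquely mapped reads counted here leave such windows out. Lyz1 itself was at 1.52 to 4.58 CPM in training and 1.02 to 3.90 CPM in sedentary hearts, far below the counts of Lyz2. Lyz2 and Cx3cr1 overlap the genes Gm67237 and Gm33858 on the opposite strand.

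**Figure D2:**
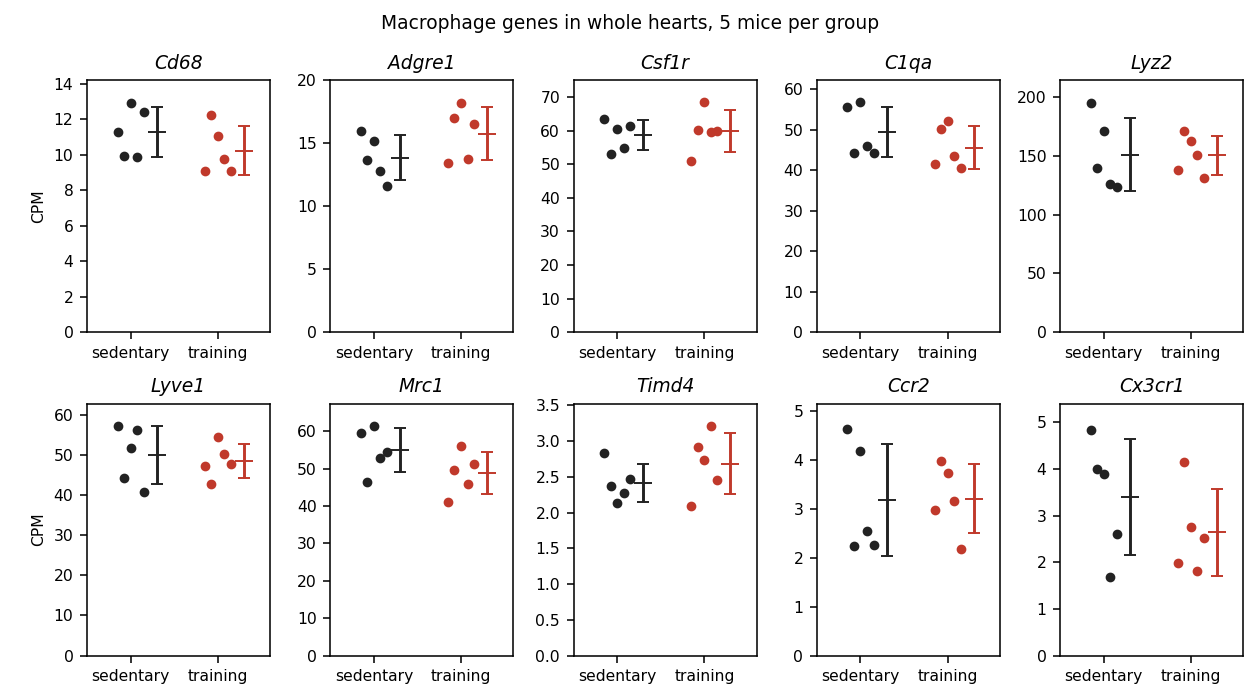
CPM of the 10 macrophage genes in each heart (points; black, sedentary; red, training), with the mean and the SD of 5 hearts beside them; each vertical axis starts at 0. The points of the 2 groups overlap for every gene, and Lyz2, Ccr2 and Cx3cr1 spread more among the sedentary hearts (SD 30.8, 1.14 and 1.25 CPM) than among the training hearts (SD 16.5, 0.704 and 0.928 CPM).

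Among the genes of resident macrophages, Lyve1 (ENSMUSG00000030787, chromosome 7, 110448585 to 110462460), a hyaluronan receptor that lymphatic endothelium also makes, was at 47.2, 42.7, 54.4, 50.3 and 47.8 CPM in training hearts. The sedentary hearts had 57.2, 44.1, 51.6, 56.2 and 40.8 CPM. All training values lay within the range of the sedentary values. Its log2 fold change was −0.04 with a 95% interval from −0.24 to 0.15 (SE 0.091; edgeR, Benjamini-Hochberg adjusted p = 0.835). In a fit that was added after seeing the data, with the score of the 6 atrial markers as a covariate, it was −0.29 (SE 0.060; edgeR, Benjamini-Hochberg adjusted p = 0.0780), and Lyve1 was then the only 1 of the 10 genes past the threshold, where 0.608% of all genes passed. That score was itself higher in training hearts (mean difference 0.71, with overlap), so the fit cannot fully separate training from the score. In the fit without a covariate, where Lyve1 was at −0.04, 0 of 6 other markers of lymphatic endothelium passed. Their median log2 fold change there was 0.06, and their values with the score are not given here. Prox1, the regulator of lymphatic identity that cardiomyocytes also express, was at 83.6 ± 8.78 CPM in training and 77.8 ± 5.22 CPM in sedentary hearts. Reln, a secreted glycoprotein of lymphatic vessels, was at 9.46 ± 0.707 and 8.61 ± 1.06 CPM.

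Mrc1 (ENSMUSG00000026712, chromosome 2, 14234151 to 14336926), the mannose receptor CD206, had 41.2, 49.7, 56.1, 45.9 and 51.3 CPM in training hearts and 59.6, 46.5, 61.4, 52.8 and 54.4 CPM in sedentary hearts. The means were 48.8 ± 5.63 and 54.9 ± 5.90 CPM. Training hearts 1 and 4 lay below every sedentary heart, and sedentary hearts 1 and 3 above every training heart. The log2 change of −0.17 had the smallest p of the 10 genes (SE 0.085; edgeR, Benjamini-Hochberg adjusted p = 0.286).

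Timd4 (ENSMUSG00000055546, chromosome 11, 46701620 to 46735177), a receptor for phosphatidylserine on dying cells that marks macrophages renewed without monocytes, had only 74 to 114 counts per heart. It was at 2.09, 2.92, 2.73, 3.21 and 2.45 CPM in training hearts and at 2.83, 2.37, 2.13, 2.28 and 2.47 CPM in sedentary hearts. Training hearts 2 and 4 exceeded all sedentary hearts, and training heart 1 was the lowest of the 10. On the log2 scale the difference was 0.15 (SE 0.13; edgeR, Benjamini-Hochberg adjusted p = 0.571). The coefficient of variation over 10 hearts was 14.3%, and counting error alone gives 10.5%.

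Ccr2 (ENSMUSG00000049103, chromosome 9, 123901982 to 123913594), the receptor for the chemokine CCL2 on monocytes, had 66 to 187 counts per heart. The training hearts had 2.97, 3.98, 3.75, 3.17 and 2.19 CPM. The sedentary hearts fell apart into higher values in hearts 1 and 3 (4.65 and 4.18 CPM) and lower ones in hearts 2, 4 and 5 (2.25, 2.56 and 2.27 CPM), and the training values lay between or just below them. The means of 3.21 ± 0.704 and 3.18 ± 1.14 CPM gave a log2 change of 0.01 with a 95% interval from −0.46 to 0.49 (SE 0.22; edgeR, Benjamini-Hochberg adjusted p = 0.984). The coefficient of variation was 28.0%, against 9.34% from counting error.

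Cx3cr1 (ENSMUSG00000052336, chromosome 9, 119877749 to 119898945), the fractalkine receptor of resident macrophages and of patrolling monocytes, varied most of all 10 genes between hearts (coefficient of variation 36.8%, counting error 9.60%). It was at 1.98, 4.15, 2.76, 1.81 and 2.52 CPM in training hearts and 4.84, 4.00, 3.89, 1.68 and 2.60 CPM in sedentary hearts. Sedentary hearts 1, 2 and 3 and training heart 2 were high, and the lowest of all was sedentary heart 4. The log2 change of −0.36 was the largest in size but also the least certain (SE 0.27; edgeR, Benjamini-Hochberg adjusted p = 0.489).

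The resident genes were then set against Ccr2. Per length, in TPM, the level per transcript length that the authors computed with RSEM, the 10 genes ranked Lyz2 (median over 10 hearts 126 TPM), C1qa (48.2 TPM), Lyve1 (20.8 TPM), Csf1r (16.3 TPM), Mrc1 (10.2 TPM), Cd68 (9.88 TPM), Adgre1 (4.73 TPM), Timd4 (1.14 TPM), Ccr2 (1.00 TPM) and Cx3cr1 (0.915 TPM). The ranges of neighbours in this order overlapped for Lyve1 and Csf1r, although Lyve1 was above Csf1r in 10 of 10 hearts. They overlapped also for Mrc1 and Cd68 (Mrc1 above in 6 of 10), Timd4 and Ccr2 (7 of 10) and Ccr2 and Cx3cr1 (5 of 10), and these neighbours cannot be ordered beyond their spread. By TPM, Lyve1 was a median of 20.3 times as abundant as Ccr2 (14.9 to 30.1 times), Mrc1 9.21 times (7.90 to 16.3) and Timd4 1.29 times (0.716 to 1.84). Lyve1 and Mrc1 messages thus outnumbered that of Ccr2 in every heart of both groups.

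The mean log2 CPM of Lyve1, Timd4 and Mrc1 minus that of Ccr2 was 2.41, 2.20, 2.42, 2.60 and 3.03 in training hearts (mean 2.53 ± 0.313). In sedentary hearts it was 2.19, 2.89, 2.17, 2.87 and 2.93 (mean 2.61 ± 0.392). The groups overlapped over nearly their whole range, and the means differed by −0.08, less than the SD within either group. Of the single genes, the difference of group means was −0.09 for Lyve1 minus Ccr2, 0.09 for Timd4 minus Ccr2 and −0.22 for Mrc1 minus Ccr2, each below its SD within groups. A shift between resident and recruited genes was therefore not detectable at the spread of these hearts.

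**Figure D3:**
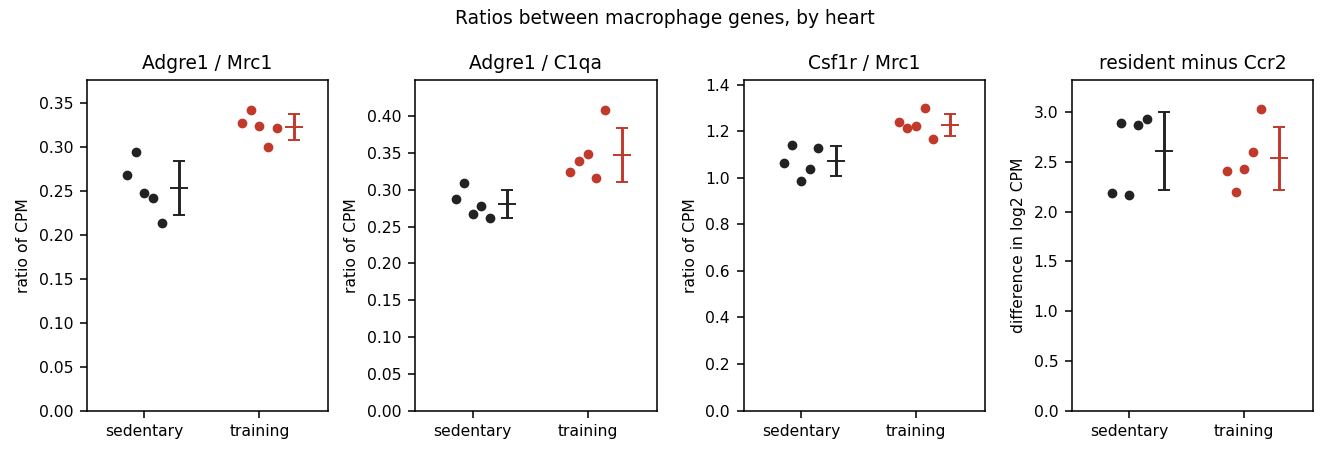
The 3 ratios of CPM between macrophage genes whose groups did not overlap, and at the right the mean log2 CPM of Lyve1, Timd4 and Mrc1 minus that of Ccr2, in each heart (points; black, sedentary; red, training) with mean and SD of 5 hearts. Training hearts lie above all sedentary hearts for Adgre1/Mrc1 (from 0.300 against up to 0.295), Adgre1/C1qa (0.316 against 0.309) and Csf1r/Mrc1 (1.17 against 1.14), and overlap with them in the right panel.

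Ratios between the macrophage genes do not depend on library size, and all 45 pairs were examined after the values of the genes had been seen, so they are given with no test. In all but 3 pairs the groups overlapped. Adgre1 over Mrc1 was 0.327, 0.342, 0.324, 0.300 and 0.322 in training hearts and 0.269, 0.295, 0.248, 0.242 and 0.213 in sedentary hearts. Every training heart thus had a higher ratio of Adgre1 to Mrc1 counts than any sedentary heart, with the nearest values apart by less than the spread within the groups. Adgre1 over C1qa ranged from 0.316 to 0.408 in training and from 0.261 to 0.309 in sedentary hearts. Csf1r over Mrc1 was at least 1.17 (median 1.22) in training hearts and ranged from 0.985 to 1.14 in sedentary hearts. As a background, the ratio to Adgre1 separated the groups for 2.06% of 15453 genes (319), and for 1.99% (308) with the lower values in training hearts, Mrc1 and C1qa among them. The ratio to Mrc1 separated them for 4.02% of 15453 genes (621), and for 3.92% (605) with the higher values in training hearts, Csf1r among them.

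Hearts of 1 group differed from each other too. Sedentary heart 1 had the highest or the second highest level of Lyz2, Ccr2, Cx3cr1, Lyve1, C1qa, Mrc1 and Csf1r among the 10 hearts. Over the 10 hearts, Ccr2 and Lyz2 moved together (Pearson's r = 0.94, permutation p = 0.00012, Benjamini-Hochberg adjusted over 45 pairs 0.0054; Spearman's rho = 0.867, permutation p = 0.00247, adjusted 0.0799). Without the 2 hearts farthest from the median of Ccr2, r was 0.92, and it was 0.94 after the group means were taken out. Ccr2 and C1qa had r = 0.85 (permutation p = 0.00368, adjusted 0.0621; rho = 0.794, permutation p = 0.00888, adjusted 0.0799; r = 0.75 without the 2 farthest hearts). Lyz2 and C1qa had r = 0.83 (permutation p = 0.00414, adjusted 0.0621) but missed the threshold by rank (rho = 0.673, permutation p = 0.0389, adjusted 0.175; r = 0.68 without the 2 farthest hearts). Groups of 5 hearts are too small for a correlation of their own. Of the 45 pairs, 43 had r above 0 (median 0.47), and both exceptions held Lyve1, with Cd68 (r = −0.14) and with Cx3cr1 (r = −0.11).

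**Figure D4:**
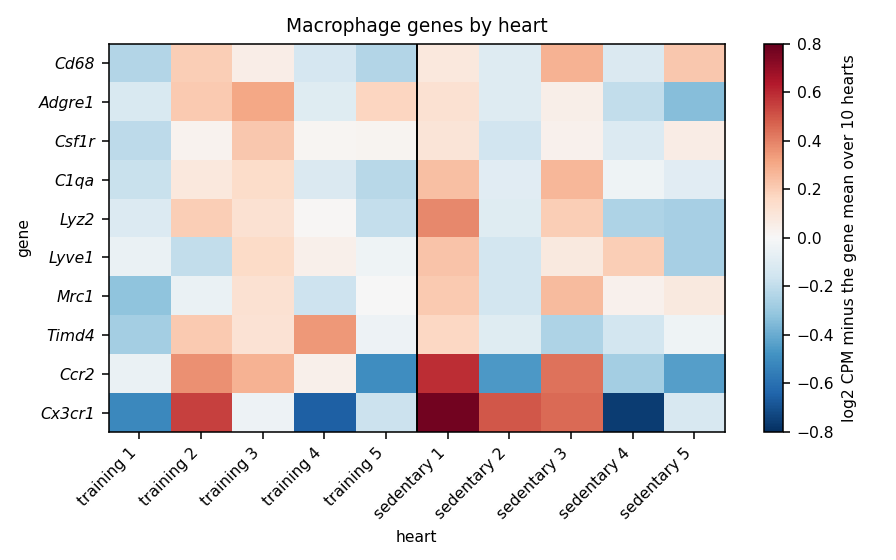
Log2 CPM of each macrophage gene in each heart minus the mean of that gene over 10 hearts (colour scale, red above and blue below the mean), training hearts at the left of the line and sedentary hearts at the right. Sedentary hearts 1 and 3 and training hearts 2 and 3 are above the mean for Ccr2, Lyz2, C1qa and Adgre1 alike.

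Sedentary hearts 1 and 3 were also the highest in markers of erythroid cells and neutrophils. The summed CPM of 5 erythroid genes was 141 and 134 in these hearts, against 60.3 to 102 in the other sedentary hearts and 39.1 to 98.8 in training hearts. The summed CPM of 6 neutrophil markers, a cell type that also makes Lyz2, was 6.33 and 5.67 in these 2 hearts and 1.43 to 3.99 in the other 8. Ly6g, a defining neutrophil marker, had at most 1 count in a heart. The part of blood cells in the levels of Ccr2, Lyz2 and C1qa was not tested.

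For Ccr2, Lyve1 and Adgre1, the genes whose log2 CPM followed theirs most closely over the 10 hearts were searched among 13116 genes of a mean CPM of 1 or more, as a description with no test. For Ccr2 they were Coro1a (r = 0.96), which encodes an actin-binding protein of leukocytes, Lyz2 (r = 0.94) and Hdnr (r = 0.94). For Lyve1 they were Zfp35 (r = 0.94), Cdk7 (r = 0.92) and Trim67 (r = 0.91). For Adgre1 they were Wwc1 (r = 0.98) and Inhba (r = 0.94). All points share the libraries and their depth.

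A further 102 genes of macrophages, their supply and their activity were read from the same fit. Of these, 91 could be tested and 4 passed (4.40%, beside 7.01% of all genes), with a median log2 fold change of −0.03, 39 values above 0 and 52 below. Among 18 other genes of macrophages in general, 0 passed, 14 values were below 0, and the median was −0.12. DESeq2 called 1 of these 18, beside 9.53% of all genes. C1qb, another chain of C1q, was at 42.9 ± 6.75 CPM in training and 47.2 ± 7.08 CPM in sedentary hearts. Mertk, a receptor for the uptake of dying cells, was at 14.3 ± 1.42 and 17.1 ± 1.91 CPM and came closest, with −0.26 on the log2 scale (SE 0.084; edgeR, Benjamini-Hochberg adjusted p = 0.104). Its values ran from 12.2 to 16.2 CPM in training and from 15.2 to 20.3 CPM in sedentary hearts, and these ranges overlapped.

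Of 11 other genes of resident macrophages, 0 passed (1 in DESeq2, beside 9.53% of all genes), and the median was 0.09. The most abundant by CPM was Gas6, the bridging ligand of the MERTK and AXL receptors that many cell types make, at 228 ± 9.92 CPM in training and 206 ± 16.0 CPM in sedentary hearts (log2 change 0.15; edgeR, Benjamini-Hochberg adjusted p = 0.152). Cd209f, a lectin gene, was at 1.56 ± 0.546 and 1.15 ± 0.194 CPM. Of 14 monocyte genes, only 8 had enough counts, 0 passed, and the median was −0.11. This median had no stable direction, since it was 0.24 without sedentary heart 1 and −0.25 without sedentary heart 3. Ly6c2, a defining gene of inflammatory monocytes, had at most 6 counts in a heart and could not be tested. Vcan, a matrix proteoglycan that fibroblasts make as well, was at 34.8 ± 6.12 and 35.2 ± 4.97 CPM. Nr4a1, required by patrolling monocytes and induced early in many cells, was at 10.8 ± 2.55 CPM in training and 11.6 ± 6.37 CPM in sedentary hearts.

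MHC class II genes, which Ccr2-positive macrophages and dendritic cells express, had 0 of 7 past the threshold and a median of −0.09. In training and sedentary hearts, Cd74 was at 73.3 ± 14.0 and 78.5 ± 4.37 CPM, and H2-Aa at 29.3 ± 5.82 and 33.9 ± 2.78 CPM. Of 9 transcription factors of the lineage, 0 passed (median −0.07), with Zeb2 at 48.0 ± 3.20 and 43.9 ± 5.11 CPM and Nr1h3, the liver X receptor alpha, at 17.4 ± 0.379 and 19.4 ± 4.24 CPM. Of 11 engulfment genes, 0 passed (median −0.006), while DESeq2 and library totals each called 3. Over all genes, DESeq2 called 9.53% and library totals 1368 of 15454. Lrp1, a scavenger receptor and the most abundant of the 11 by CPM, was at 311 ± 35.7 and 312 ± 38.4 CPM.

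Growth factor, chemokine and adhesion genes that supply macrophages held 2 of the 4 changed genes, among 18 tested of 20. Of all genes tested, 7.01% passed. Il34, which encodes the second ligand of CSF1R, was lower in training hearts. It was at 3.65, 2.63, 3.05, 3.70 and 2.79 CPM in training and 4.42, 4.99, 4.23, 4.44 and 4.14 CPM in sedentary hearts, so that every training heart lay below every sedentary heart. Training hearts differed by −0.49 on the log2 scale (SE 0.11; edgeR, Benjamini-Hochberg adjusted p = 0.0326). Csf1, the other ligand of the receptor, was at 60.2 ± 7.35 and 59.0 ± 8.35 CPM (log2 change 0.03; edgeR, Benjamini-Hochberg adjusted p = 0.898). The difference between the changes of the ligand genes was not tested.

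Vcam1, the endothelial adhesion molecule that leukocytes bind, was higher in training hearts, at 32.5, 27.2, 36.7, 28.8 and 32.0 CPM against 23.6, 22.2, 27.7, 25.9 and 23.4 CPM in sedentary hearts. Training heart 2 lay just below sedentary heart 3, and the other training hearts lay above all sedentary hearts. Its log2 change was 0.36 (SE 0.081; edgeR, Benjamini-Hochberg adjusted p = 0.0326). The supply list as a whole had a median of 0.04, with 10 values above 0 and 8 below. Ccl3 and Ccl4 had at most 7 counts in a heart.

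Of 16 activation genes, 13 could be tested and 2 passed, beside 7.01% of all genes. Both were higher in training hearts, and the median over the list was 0.06. With library totals or with counts of both strands, 3 of the 13 passed, and without 1 heart 1 to 3 passed. Over all genes, 1368 of 15454 passed with library totals, 1061 of 15671 with both strands and 512 to 1490 without 1 heart. Ptgs2, the inducible cyclooxygenase, had 3.65, 3.49, 3.91, 2.68 and 3.18 CPM in training and 1.96, 1.72, 2.61, 2.73 and 2.03 CPM in sedentary hearts. Only training heart 4 reached into the sedentary range. Its log2 change was 0.62 (SE 0.15; edgeR, Benjamini-Hochberg adjusted p = 0.0379). Spp1, the gene of osteopontin, had 1.13, 3.44, 1.82, 1.46 and 1.96 CPM in training and 0.919, 1.02, 1.28, 0.996 and 0.986 CPM in sedentary hearts, and training heart 2 stood far above the others. Its log2 change was 0.91 (SE 0.25; edgeR, Benjamini-Hochberg adjusted p = 0.0673), and it passed in only 5 of 10 fits that each left out 1 heart. It did not pass without training heart 3 or 5 or without sedentary heart 2, 4 or 5, with the highest adjusted p in edgeR, 0.124, without sedentary heart 4. Hmox1, the heme oxygenase gene and the most abundant of the list by CPM, was at 19.0 ± 4.27 and 18.7 ± 3.04 CPM. Il6, Il10 and Arg1 had at most 7 counts in a heart.

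Il34, Vcam1 and Ptgs2 kept their calls in 10 of 10 fits without 1 heart. When the atrial marker score, itself higher in training hearts (mean difference 0.71), entered the fit, all 4 genes lost them. In that fit 0.608% of all genes passed (94 of 15454), beside 7.01% without the score. A lost call is therefore not particular to these genes. Il34 then had a log2 change of −0.49 (edgeR, adjusted p = 0.222), Vcam1 of 0.23 (edgeR, adjusted p = 0.398), Ptgs2 of 0.46 (edgeR, adjusted p = 0.384) and Spp1 of 1.13 (edgeR, adjusted p = 0.210). Cells other than macrophages also express all 4 genes.

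**Figure D5:**
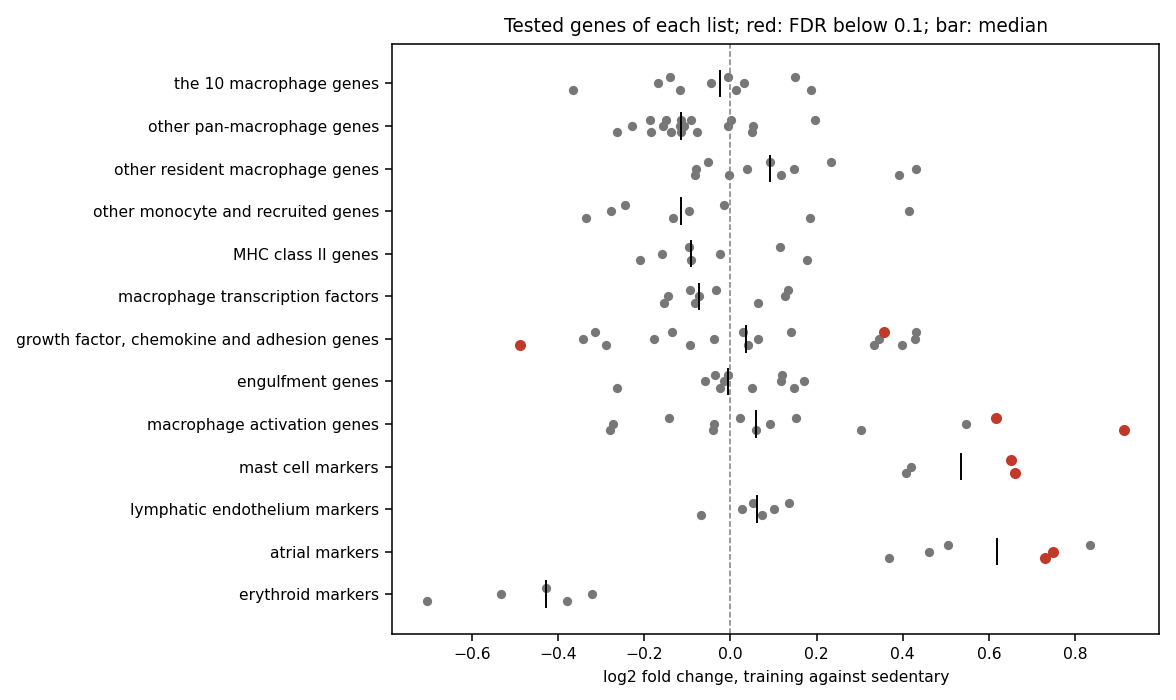
Log2 fold change in training over sedentary hearts for each tested gene of the macrophage lists and of 4 lists of other cell types (points; red, FDR below 0.1; black bar, median of the list). The lists of macrophage genes have medians from −0.12 to 0.09, and lymphatic endothelium markers have a median of 0.06. Mast cell, atrial and erythroid markers have medians of 0.53, 0.62 and −0.43.

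Markers of other cells of the heart were examined because they share genes with macrophages or enter with blood. Mast cell markers had 2 of 4 tested genes higher in training hearts, beside 2.75% of all genes, and a median of 0.53. The protease gene Mcpt4 was at 3.16 ± 0.755 CPM in training and 2.01 ± 0.399 CPM in sedentary hearts (log2 change 0.65; edgeR, Benjamini-Hochberg adjusted p = 0.0696), and Cma1, another protease gene, at 2.36 ± 0.704 and 1.50 ± 0.264 CPM (log2 change 0.66; adjusted p = 0.0954). These calls were kept in only 3 and 4 of 10 edgeR fits without 1 heart, and the highest adjusted p among these fits was 0.163 for Mcpt4 (without training heart 4) and 0.211 for Cma1 (without training heart 3). Neither passed with the score of the atrial markers in the fit, where 0.608% of all genes passed. There Mcpt4 was at 0.56 (edgeR, adjusted p = 0.427) and Cma1 at 0.30 (edgeR, adjusted p = 0.689). With the expected counts of RSEM, Cma1 did not pass (edgeR, adjusted p = 0.125). Of 6 atrial markers, 2 were higher, with Sln at 232 ± 41.6 and 138 ± 39.7 CPM and Dkk3 at 263 ± 41.0 and 159 ± 42.4 CPM. Both are part of that score, and with it in the fit neither passed (edgeR, adjusted p = 0.133 and 0.140). The atrial genes Nppa (3516 ± 581 and 2554 ± 1004 CPM) and Bmp10 (516 ± 150.0 and 289 ± 201 CPM) did not pass.

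Without a covariate, 2.75% of all genes were higher and 4.26% lower in training hearts. Of the other lists, fibroblast markers had 1 gene higher of 6, blood endothelium 1 lower of 6, and cardiomyocytes 1 lower of 6. These were Pdgfra (60.8 ± 5.98 and 51.7 ± 2.98 CPM), Tie1 (95.3 ± 3.58 and 106 ± 6.38 CPM) and Actc1 (8022 ± 849 and 10470.0 ± 858 CPM). Pdgfra and Tie1 passed in 4 and 3 of 10 fits without 1 heart. With the atrial score in the fit, 0.608% of all genes passed. Pdgfra (edgeR, adjusted p = 0.406), Tie1 (edgeR, adjusted p = 0.617) and Actc1 (edgeR, adjusted p = 0.246) all lost their calls there. The log2 changes without and with the score were 0.24 and 0.20 for Pdgfra, −0.16 and −0.08 for Tie1, and −0.38 and −0.29 for Actc1. Dcn (635 ± 52.0 and 582 ± 47.3 CPM), Tcf21 (9.80 ± 2.09 and 7.30 ± 1.20 CPM) and Pecam1 (219 ± 11.7 and 233 ± 10.1 CPM) of these lists did not pass. No gene passed among the markers of T and NK cells (2 of 10 tested), B cells (4 of 6), neutrophils (3 of 6), dendritic cells (3 of 8), adipocytes, erythroid cells, mesothelium and Schwann cells.

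In training and sedentary hearts respectively, Trac of T cells was at 1.29 ± 0.208 and 1.06 ± 0.222 CPM, Csf3r of neutrophils at 1.38 ± 0.287 and 1.66 ± 0.425 CPM, and Zbtb46 of dendritic cells and endothelium at 13.4 ± 1.38 and 14.1 ± 1.03 CPM. The adipocyte genes Cfd (46.5 ± 34.3 and 33.8 ± 33.4 CPM) and Plin1 (9.52 ± 6.72 and 5.10 ± 3.69 CPM) and the B cell genes Ighm (23.2 ± 29.5 and 18.3 ± 26.0 CPM) and Igkc (8.97 ± 13.4 and 6.29 ± 11.0 CPM) varied widely within both groups. Of erythroid genes, Hbb-bs was at 35.7 ± 12.3 and 48.0 ± 18.1 CPM and Alas2 at 2.39 ± 0.677 and 3.87 ± 1.97 CPM. Upk3b of mesothelium was at 39.7 ± 6.15 and 36.0 ± 7.48 CPM. Cdh19 of Schwann cells was at 7.06 ± 0.480 and 6.71 ± 0.465 CPM.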

How the data were processed

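RNA of whole hearts was sequenced from 5 training and 5 sedentary mice, grouped by the labels. The authors aligned the reads to GRCm39 with STAR 2.7.10a and deposited, for every gene, the raw count of uniquely mapped reads, and with RSEM 1.3.3 they deposited expected counts and TPM. The RSEM strand setting is not given in the sources used here. TPM serve only to compare genes by level, as ranks and as ratios to Ccr2. The counts are neither normalized nor filtered.

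Reverse-strand counts were used, which hold at least 94.9% of those on either strand. Multimapping reads made up 17.9% to 19.2%, and reads on no gene 4.15% to 4.89%, and both stayed out of library sizes. Symbols and positions came from GENCODE M39 (56017 of 56748 identifiers matched).

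Groups were compared over all genes by edgeR 4.0.16 under R 4.3.3 (genes filtered by filterByExpr, TMM, quasi-likelihood F test, Benjamini-Hochberg adjustment, FDR below 0.1). Intervals are 95% intervals from that fit. The log2 CPM of the resident against recruited comparison carry a prior count of 2. Correlations used 100000 permutations (scipy 1.17.1). Pairs of libraries differed by more than counting noise, so no library was counted as a duplicate. Each library is 1 mouse.

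The 10 genes and all lists were chosen with earlier results of these data known. Named are the 10 genes, every list gene past the FDR, the most abundant gene of each list and the gene with the largest log2 fold change in size, of genes whose mean CPM was at least 1. A near copy of a gene (Lyz1) and the 3 genes most like Lyve1, Adgre1 and Ccr2 are named too, except for a few that are not reported here. Genes with too few counts, Hmgxb3, Gm67237 and Gm33858 were named outside this rule, after their values were seen.

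On simulated data with 15302 genes for this comparison, edgeR recovered 93.9% of genes changed by a log2 of 1 and 79.6% of those changed by 0.5. Of its calls, 7.61% were false. The changed genes were drawn at random, so these shares need not hold for Ccr2 and Cx3cr1, with SEs of 0.22 and 0.27. DESeq2 1.42.0 gave 13.6% false calls. Alternatives were DESeq2, its size factors, library totals, no filter or at least 10 counts per heart, RSEM expected counts rounded to whole numbers, counts of both strands, an FDR below 0.05, the mouse number as a block, the omission of each heart and a prior count of 0.5. The atrial covariate and the ratios between genes were chosen after seeing the data. This covariate differed between the groups, so fits with it cannot fully separate training from the score. Mouse numbers were not used as pairs, since residuals of hearts with the same number had correlations from −0.11 to 0.24.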

Additional observations from a re-analysis of the deposited data

Results flagged for a closer look

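Each value was compared with the other 4 hearts of its group, for 54 named genes of the 2 groups and for the resident minus recruited difference, and chance alone sets apart about 1 in 20 groups. Of 110 groups, 9 held such a heart, and none of these concerned the 10 macrophage genes. Sedentary heart 1 stood apart in 4 genes. Ighm was at 64.6 CPM there (4.69 to 10.2 in the other sedentary hearts), Igkc at 25.9 CPM (0.426 to 2.99), the adipocyte gene Cfd at 91.9 CPM (10.7 to 27.8) and the fibroblast gene Tcf21 at 9.44 CPM (6.58 to 6.92). Sedentary heart 1 also had the highest Ccr2, Lyz2 and Cx3cr1 levels of all 10 hearts. Training heart 4 had Ighm at 74.9 CPM (5.89 to 20.3 in the other training hearts) and Igkc at 32.2 CPM (1.06 to 8.39), while its Ccr2 level of 3.17 CPM was near the middle of its group. Spp1 was at 1.28 CPM in sedentary heart 3, above the 0.919 to 1.02 CPM of the other sedentary hearts. Actc1 was at 9516 CPM in training heart 2 (7402 to 7777 in the others), and Upk3b at 50.6 CPM in training heart 3 (35.7 to 37.8).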

How the results depend on the processing

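For the 10 macrophage genes, 190 fold changes were recomputed under 19 alternatives, of which 171 kept their direction and their side of the threshold. Without a covariate, none of the alternatives called any of the 10, the lowest adjusted p being 0.174 for Mrc1 (edgeR or DESeq2, Benjamini-Hochberg adjustment). The atrial score, added after seeing the data, called 1 (Lyve1), and with it 94 of all genes and 0 of the 91 other macrophage genes passed. It also put Csf1r at −0.044 and Ccr2 at −0.38. With an FDR below 0.05, 505 of all genes passed. Of the 91 other macrophage genes, 4 in the report, DESeq2 called 7 and library totals 9. Over all 15454 genes tested, DESeq2 called 1473 (9.53%) and library totals 1368.

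Library totals turned Lyve1 to 0.0077 and Lyz2 to 0.043. They also moved the median over all genes tested from 0.00026 to 0.053. Leaving out 1 heart gave 512 to 1490 calls over all genes, with 512 without training heart 4 or sedentary heart 3, 540 without training heart 3, and 611 and 671 without sedentary hearts 2 and 4, 0 calls among the 10 and 3 to 8 among the other macrophage genes, with 8 without sedentary heart 1. It turned the direction of the 4 genes nearest to 0, which ranged from −0.069 to 0.10 for Lyz2, −0.088 to 0.19 for Ccr2, −0.023 to 0.083 for Csf1r and −0.11 to 0.0091 for Lyve1, and that of resident minus recruited genes from −0.20 to 0.01. The largest Lyz2 value was that without sedentary heart 1.

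With the mouse number as a replicate block, 1137 of all genes, 0 of the 10 and 7 of the other macrophage genes passed, and Lyz2 was at 0.011. The labels do not say whether hearts with the same number were matched, and their residuals had correlations from −0.11 to 0.24. Depth limits Timd4, which had 74 to 114 counts per heart. Leaving out 1 heart also turned the list medians of monocyte genes (−0.25 to 0.24), transcription factors (−0.10 to 0.02), supply genes (−0.05 to 0.11) and engulfment genes (−0.02 to 0.06).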
